A study of Arabidopsis thaliana with 12 samples.

Results

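Seed oil mobilization was followed through 10 genes picked by locus and by the known role of their products, out of 33601 AGI loci counted. No measured value was part of the rule, but earlier results of these data were known when it was set. They are SDP1 (AT5G04040), LACS6 (AT3G05970), LACS7 (AT5G27600), ACX2 (AT5G65110), ACX3 (AT1G06290), MFP2 (AT3G06860), KAT2 (AT2G33150), ICL (AT3G21720), MLS (AT5G03860) and PCK1 (AT4G37870). Whole 3-day-old Arabidopsis seedlings of ecotype Columbia had been kept in the dark after a short light pulse that induces germination, on medium that held no sucrose. The 4 groups are named by genotype and treatment: WT dark and pifq dark grew without drug, and WT dark linc and pifq dark linc grew on 0.5 mM lincomycin, an antibiotic that blocks translation in the plastid and thereby activates retrograde signals from plastid to nucleus (RS). The pifq mutant lacks PIF1, PIF3, PIF4 and PIF5, transcription factors that keep dark-grown seedlings etiolated. Each group had 3 biological replicates, so that 12 libraries were available, and the comparisons ask whether the genes that feed a dark seedling from its oil follow PIF loss, lincomycin or both.

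An Arabidopsis seed stores its carbon largely as oil in the cells of the embryo, and until the seedling can photosynthesize it lives on that store. A lipase on the oil body releases fatty acids, which are carried into the peroxisome, joined to coenzyme A and shortened by the rounds of beta-oxidation. The acetyl-CoA that is formed passes through the glyoxylate cycle, and gluconeogenesis then makes sugar for the growing hypocotyl. In a dark seedling on medium without sugar this route is the main source of carbon.

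Library totals were between 11495950 and 17612505 counts, and each library's floor of 3 counts corresponded to between 0.170 and 0.261 CPM (counts scaled to a fixed library size), a limit that covers counting error only. Values below are normalized CPM, that is, CPM scaled by TMM, which assumes that most genes do not change between libraries. The TMM factors were between 0.810 and 0.869 in pifq dark and between 0.996 and 1.11 in the other groups. Pairs of replicates had Spearman correlations across genes between 0.972 and 0.991, and the lowest in WT dark and in pifq dark involved WT dark replicate 2 and pifq dark replicate 3. Reads at PIF1, PIF3 and PIF5 were lower in pifq dark than in WT dark, with log2 fold changes of −4.82, −6.04 and −3.75, whereas PIF4 rose by 0.62, and reads at a 3′ end outside the mutated stretch check nothing. PORA, the protochlorophyllide oxidoreductase of etioplasts that marks the dark-grown state, averaged 1133 normalized CPM in WT dark and 252 in pifq dark.

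Sequences just before the annotated starts are shown for some of the genes, because PIFs are known to bind the G-box and the PBE-box. They are the pair of glyoxylate cycle genes and LACS7, the only member whose window held a PBE-box. Each was lower in pifq in at least 1 comparison of genotypes below. So were LACS6, MFP2, PCK1 and KAT2, which are not shown. The 250 bases before each start, read 5′ to 3′ on the gene's own strand from RefSeq assembly TAIR10.1, lie at chr3:7656054-7656303 (minus strand) for ICL, at chr5:1034974-1035223 (minus strand) for MLS and at chr5:9742242-9742491 (plus strand) for LACS7. Capitals mark an ACGTG core in ICL and a PBE-box in LACS7, which reads CATGTG here because the box CACATG lies on the other strand.
ICL: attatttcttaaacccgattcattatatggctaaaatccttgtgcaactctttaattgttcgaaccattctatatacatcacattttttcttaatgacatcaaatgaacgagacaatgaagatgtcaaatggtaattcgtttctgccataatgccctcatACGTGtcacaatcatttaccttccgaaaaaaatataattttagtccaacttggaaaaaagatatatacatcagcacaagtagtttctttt
MLS: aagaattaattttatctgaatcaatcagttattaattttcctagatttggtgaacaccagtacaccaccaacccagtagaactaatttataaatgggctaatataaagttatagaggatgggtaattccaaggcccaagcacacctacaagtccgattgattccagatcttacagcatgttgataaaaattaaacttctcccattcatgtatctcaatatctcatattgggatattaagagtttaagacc
LACS7: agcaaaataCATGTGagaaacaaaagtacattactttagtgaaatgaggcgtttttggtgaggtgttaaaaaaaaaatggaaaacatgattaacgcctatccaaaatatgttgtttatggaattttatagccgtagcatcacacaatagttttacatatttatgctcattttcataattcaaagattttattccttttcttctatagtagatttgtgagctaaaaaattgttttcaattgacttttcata
The G-box CACGTG was in 0 of the 10 promoters of this length, against 6.49% of 27443 promoters in the annotation, with both strands read. The PBE-box CACATG was in 1 of 10, that of LACS7 at 235 bases before the start, against 11.1% of all promoters. The shorter core ACGTG, which every G-box contains, was in 2 of 10, ICL at 85 and PCK1 at 82 bases before the start, against 22.9%; this core was added once the promoters had been read. The annotated genes span chr3:7652487-7656053 for ICL (5 exons), chr5:1032099-1034973 for MLS (4 exons) and chr5:9742492-9747024 for LACS7 (23 exons). The counted window of 500 bases reached past the annotated 3′ UTR into coding sequence in each of the 10 genes, whose 3′ UTRs are between 177 and 348 bases long. A match of letters describes the window only and says nothing of binding, nor does its absence.

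SDP1, at the head of the route, is the lipase that starts the breakdown of oil, and LACS6 and LACS7 are the peroxisomal long-chain acyl-CoA synthetases that activate the released fatty acids. SDP1 was at 27.2, 20.4 and 26.0 normalized CPM in the untreated and 22.3, 22.3 and 15.8 in the treated WT libraries, and at 25.6, 22.5 and 27.0 in the untreated and 17.3, 15.3 and 15.2 in the treated pifq libraries. The pifq dark linc libraries were the lowest group and lay under all pifq dark libraries, while WT dark and pifq dark overlapped.

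LACS6 was at 20.6, 14.7 and 18.5 normalized CPM in the untreated and 15.0, 9.99 and 15.4 in the treated WT libraries, and at 8.63, 9.85 and 11.1 in the untreated and 7.44, 6.92 and 10.4 in the treated pifq libraries. Without drug all pifq libraries were below all WT libraries, and with lincomycin WT dark linc replicate 2 lay within the range of pifq dark linc. LACS7 was at 59.5, 55.4 and 60.2 in the untreated and 59.0, 58.3 and 60.7 in the treated WT libraries, and at 35.8, 35.5 and 45.6 in the untreated and 36.0, 41.4 and 47.3 in the treated pifq libraries. The 6 WT libraries of LACS7 were close to one another, and each was above each of the 6 pifq libraries.

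Acyl-CoA oxidases carry out the first step of beta-oxidation, ACX2 on long chains and ACX3 on medium chains. ACX2 was at 226.6, 253.6 and 224.4 normalized CPM in the untreated and 200.7, 188.0 and 216.2 in the treated WT libraries, and at 220.8, 201.0 and 202.2 in the untreated and 198.5, 174.0 and 161.8 in the treated pifq libraries. The groups without lincomycin had the higher means, and in both genotypes the treated libraries were all below the untreated ones. ACX3 stayed between 20.3 and 31.9 in the 12 libraries, with means of 25.7 and 27.6 in untreated and treated WT and of 24.0 and 26.3 in untreated and treated pifq. Its counts are uncertain, since its 3′ end shares at least 90% identity over at least 100 bases with 2 other genes, the closest being AT3G06690 with 98.7% over 388 bases; the other 9 members had no such copy.

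MFP2, the multifunctional protein that hydrates and dehydrogenates the intermediate, was at 83.7, 81.3 and 82.3 normalized CPM in the untreated and 88.0, 95.5 and 89.8 in the treated WT libraries, and at 51.2, 49.3 and 50.4 in the untreated and 55.7, 47.0 and 56.0 in the treated pifq libraries. All WT libraries were far above all pifq libraries, and the replicates were tight, with coefficients of variation between 1.48% and 9.62%. KAT2, the main seedling thiolase that releases acetyl-CoA, was at 60.0, 68.5 and 61.2 in the untreated and 67.4, 60.6 and 65.6 in the treated WT libraries, and at 49.6, 51.9 and 44.3 in the untreated and 59.2, 56.6 and 55.5 in the treated pifq libraries. KAT2 was lowest in pifq dark, whose libraries were all below those of WT dark and of pifq dark linc. As both enzymes act in the same round, their counts were also set against each other within each library, which needs no scaling between libraries. KAT2 counts were between 0.635 and 0.843 of the MFP2 counts in the 6 WT libraries and between 0.879 and 1.20 in the 6 pifq libraries. The other ratios taken in this way overlapped between genotypes. ICL over MLS was between 12.3 and 19.3 in WT and between 8.99 and 17.4 in pifq. LACS7 over LACS6 was between 2.88 and 5.84 in WT and between 3.61 and 5.98 in pifq. How many gene pairs separate the genotypes was not counted.

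ICL and MLS, isocitrate lyase and malate synthase, are the enzymes proper to the glyoxylate cycle, and PCK1 is the phosphoenolpyruvate carboxykinase that opens gluconeogenesis. ICL was at 2362, 5152 and 3215 normalized CPM in the untreated and 4047, 6277 and 5481 in the treated WT libraries, and at 2479, 2709 and 1387 in the untreated and 2721, 2090 and 1363 in the treated pifq libraries. All WT dark linc libraries were above all pifq libraries, whereas WT dark replicate 1 lay below 2 libraries of pifq dark. By level ICL ranked 12 of 14040 genes in untreated WT and 7 after lincomycin, and 55 and 34 in pifq. Its replicates varied more than those of most members, with coefficients of variation of 40.0% and 21.5% in WT and of 32.2% and 33.0% in pifq.

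MLS was at 191.7, 312.5 and 251.0 normalized CPM in the untreated and 294.8, 324.8 and 390.2 in the treated WT libraries, and at 152.1, 155.7 and 154.2 in the untreated and 202.1, 155.9 and 131.4 in the treated pifq libraries. The lowest WT dark library was above the highest pifq dark library, and the gap was wider between the treated groups. PCK1 was at 612.1, 575.6 and 619.9 in the untreated and 650.2, 640.3 and 576.8 in the treated WT libraries, and at 443.0, 433.1 and 515.5 in the untreated and 480.0, 467.6 and 514.8 in the treated pifq libraries. For PCK1 the 6 WT libraries were all above the 6 pifq libraries, and the treated and untreated libraries of each genotype overlapped. In all, the 10 genes took 0.533% ± 0.147 (SD, n = 3) of the counts in untreated and 0.715% ± 0.108 in treated WT, and 0.267% ± 0.0470 in untreated and 0.318% ± 0.0578 in treated pifq, and ICL alone made up most of it, since without ICL the shares were 0.147%, 0.154%, 0.0853% and 0.107%.

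**Figure D1:**
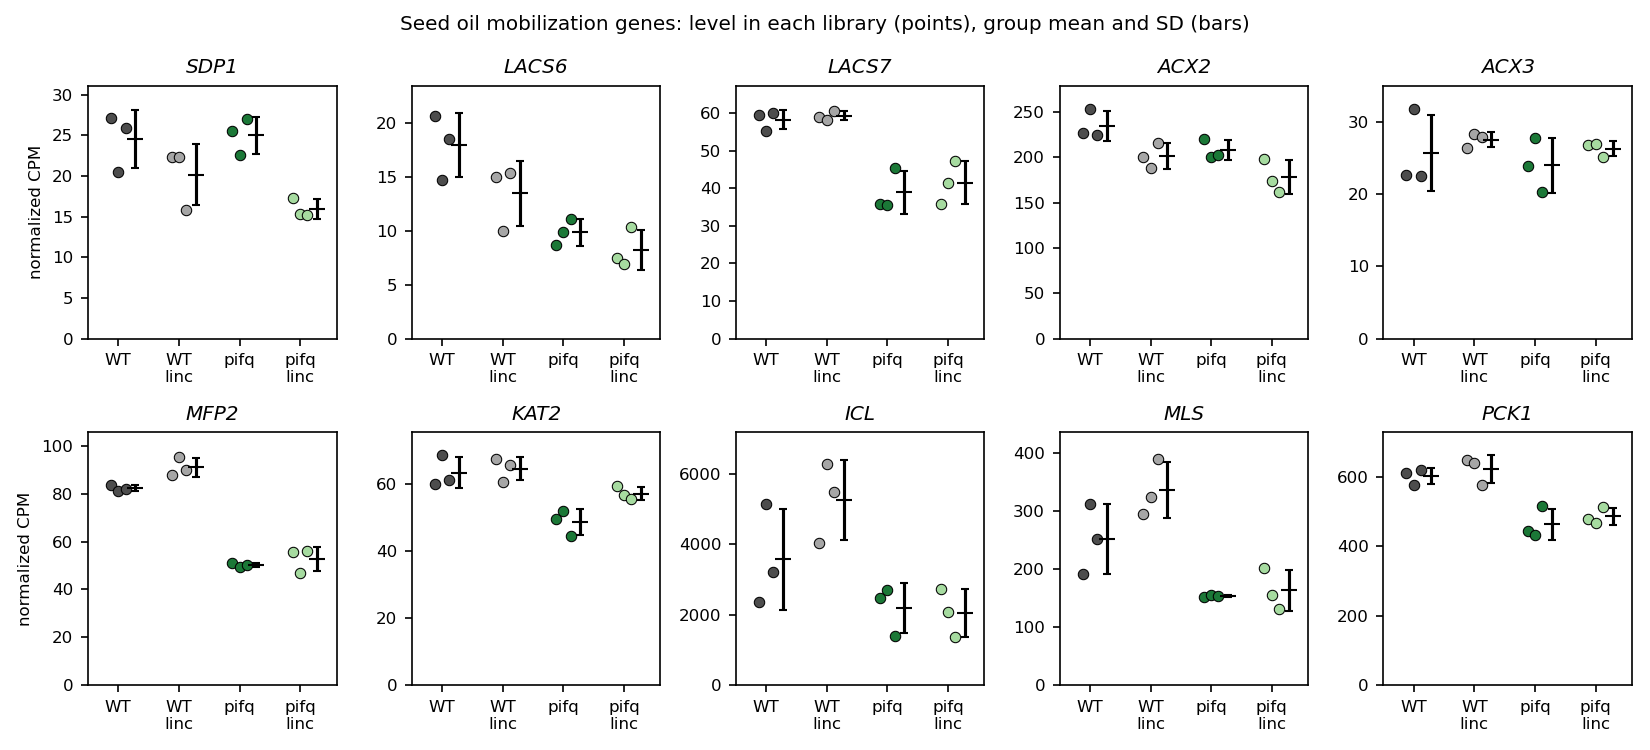
Level of each gene in normalized CPM (vertical axis, from 0, with its own range in each panel) in the 4 groups; points are libraries, and the bar beside them is the mean with the SD over 3 replicates. LACS7, MFP2 and PCK1 show all WT libraries above all pifq libraries, SDP1 is lowest in pifq dark linc, and ICL spans 2362 to 5152 within WT dark.

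Loss of the PIFs in the dark lowered 6 of the 10 genes, from fatty acid activation to gluconeogenesis, and raised 0. LACS6 fell most, by 0.87 on the log2 scale (SE 0.16), followed by MFP2 and MLS with log2 fold changes of −0.72 (SE 0.11) and −0.72 (SE 0.17), and LACS7 with −0.59 (SE 0.13). KAT2 and PCK1 fell less, both by 0.38 (SE 0.12 and 0.13). SDP1, the lipase, had a log2 fold change of 0.02 (95% interval −0.29 to 0.33), so that a change of more than 0.33 in either direction lay outside its interval.

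With edgeR's quasi-likelihood test and p-values adjusted by Benjamini-Hochberg over 13456 genes, adjusted p was 0.00130 for LACS6, 0.000267 for MFP2, 0.00561 for MLS, 0.00341 for LACS7, 0.0241 for KAT2 and 0.0331 for PCK1. Statistically significant (SS) here means an adjusted p of at most 0.05, which 20% of all tested genes met as lower, 21% as higher and 41% in either direction. Of the 10, 0 reached the threshold of a 2-fold change with an adjusted p of at most 0.01 (SSTF), which 12.8% of all genes passed in either direction. That count rests on the scaling by TMM, since with library totals in its place 4 members were SSTF. The share of all genes that were SSTF on that scale was not counted, and the median of all genes moved to −0.37 there. The median log2 fold change was −0.49 over the members and 0.00 over all genes, and 7 members had all pifq dark libraries below all WT dark libraries, against 24.9% of genes. In whole seedlings, fewer cells that express a gene and less RNA per cell cannot be told apart.

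ICL, with a mean of 2192 ± 706 (SD) against 3576 ± 1430 normalized CPM, had a log2 fold change of −0.71 (SE 0.30) that missed the threshold, with an adjusted p of 0.0790. ACX2 and ACX3 were at −0.18 (SE 0.12) and −0.10 (SE 0.17), with adjusted p of 0.261 and 0.684 and intervals of −0.45 to 0.09 and −0.48 to 0.28. The call of ICL depends on single libraries: without WT dark replicate 1 its log2 fold change was −0.95 with an adjusted p of 0.0322, and without WT dark replicate 2 it was −0.35. MLS, MFP2, LACS6 and LACS7 stayed SS without any 1 library. The calls of KAT2 and PCK1 were each lost in 4 of 6 such fits: KAT2 without WT dark replicate 2 or 3 or pifq dark replicate 1 or 3 (adjusted p between 0.0566 and 0.0614), and PCK1 without WT dark replicate 1 or 3 or pifq dark replicate 1 or 2 (between 0.0718 and 0.118).

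The size of these differences depends on the scaling, since the pifq dark libraries had the lowest TMM factors. With library totals in place of TMM the median of all genes moved to −0.37 and the SS genes that were higher went from 51.3% to 16.8%. The log2 fold changes of the members then became −1.25 for LACS6, −1.09 for MFP2, −1.09 for ICL and −1.08 for MLS, of which the part beyond −0.37 is close to the values above. ICL (adjusted p 0.00698), ACX2 (−0.55, 0.00164) and ACX3 (−0.47, 0.0270) gained calls on that scale, and ICL also did with TMM and no filter on low counts (0.0221). SDP1, at −0.36 on that scale, was at the median of all genes.

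Under lincomycin the loss of the PIFs again lowered 6 of the 10 genes and raised 0, and ICL and MLS had the most negative values. ICL averaged 2058 ± 680 (SD, n = 3) normalized CPM in pifq dark linc and 5269 ± 1130 in WT dark linc, a 2.57-fold lower level (log2 fold change −1.36, SE 0.21), and MLS 163.1 ± 35.9 against 336.6 ± 48.8, 2.07-fold lower (−1.05, SE 0.15). MFP2 fell by 0.79 (SE 0.12), LACS6 by 0.72 (SE 0.18), LACS7 by 0.52 (SE 0.12) and PCK1 by 0.36 (SE 0.13) on the log2 scale. KAT2, ACX2, ACX3 and SDP1 had log2 fold changes of −0.18, −0.19, −0.07 and −0.34, which did not pass the test.

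The adjusted p-values by edgeR's quasi-likelihood test over 13557 genes were 2.15e-05 for ICL, 1.15e-05 for MLS, 1.54e-05 for MFP2, 0.00374 for LACS6, 0.00165 for LACS7 and 0.0291 for PCK1. They were 0.214 for KAT2, 0.258 for ACX2, 0.668 for ACX3 and 0.0798 for SDP1. Of all genes, 18.5% were SS and lower, 17.4% SS and higher and 35.9% SS in either direction. ICL and MLS were SSTF, 2 of the 10, against 4.37% of genes that were SSTF and lower. In 6 members all pifq libraries were below all WT libraries, against 23.1% of genes, and the median over members was −0.44. PCK1 lost its call without WT dark linc replicate 1 or 2 or pifq dark linc replicate 1 or 2 (adjusted p between 0.0705 and 0.136), and SDP1 gained one without WT dark linc replicate 3 (−0.50, adjusted p 0.0115). Only 1 member was SSTF without WT dark linc replicate 3 and without pifq dark linc replicate 3.

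Because the comparisons of genotypes without and with drug share no library, they can be read side by side. MLS, PCK1, MFP2, LACS6 and LACS7, 5 genes, were SS and lower in both, and 7 were in at least 1. All but SDP1 had negative fold changes in the dark, 9 of 10, and all 10 had them under lincomycin. Of all tested genes, 20% and 18.5% were SS and lower in the single comparisons. The shares of all genes that met the joint rules or had negative values were not counted, so that no background stands beside these counts. The test of the difference between the 2 PIF effects is the interaction, which is given further on.

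**Figure D2:**
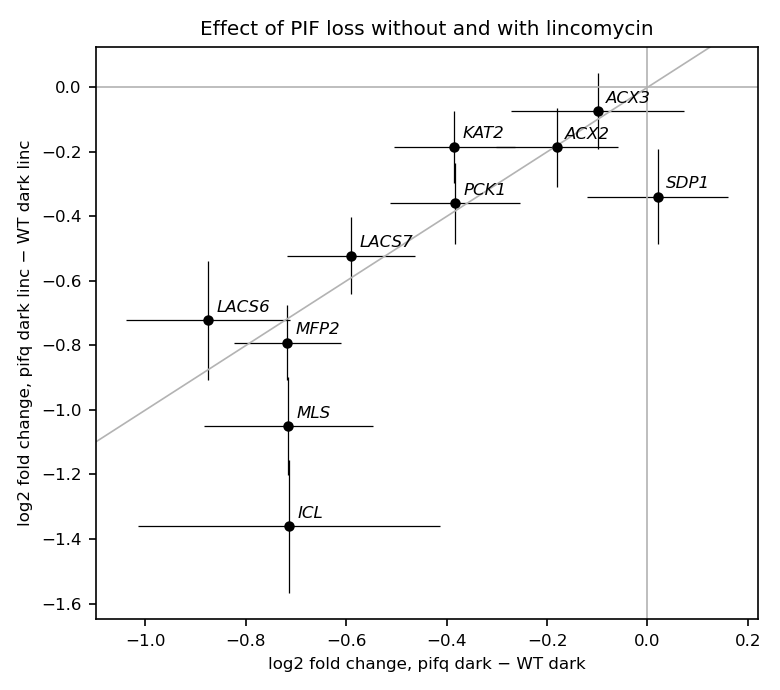
Log2 fold change of each gene between pifq dark and WT dark (horizontal axis) and between pifq dark linc and WT dark linc (vertical axis), with bars of 1 standard error and a diagonal of equal change. LACS6, LACS7, MFP2, PCK1, ACX2 and ACX3 are near the diagonal, ICL (−0.71 and −1.36) and MLS (−0.72 and −1.05) are below it, and SDP1 is at 0.02 and −0.34. KAT2 (−0.38 and −0.18) is above the diagonal.

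Lincomycin in WT seedlings gave a call for 0 of the 10 genes, at a background of 6.08% of 13455 genes SS in either direction. The highest values were those of the glyoxylate cycle genes, with a log2 fold change of 0.55 (SE 0.23, 95% interval 0.06 to 1.05) for ICL and of 0.41 (SE 0.17) for MLS, and the lowest was that of LACS6, at −0.42 (SE 0.17). Their adjusted p by edgeR's quasi-likelihood test were 0.184, 0.167 and 0.175. These 3 genes had an unadjusted p under 0.05, and DESeq2 also called 0 of the 10. ACX2 was lower in all treated than in all untreated libraries and MFP2 was higher, with log2 fold changes of −0.22 and 0.14 that did not pass the test, against 23.2% of genes without overlap.

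The count of 0 depends on the fit and on 1 library. With all libraries kept, the replicate number as a block gave calls for ICL (adjusted p 0.00266), MLS (0.0218) and LACS6 (0.0268), and no filter on low counts gave calls for ICL (0.0130) and MLS (0.0492). WT dark replicate 2 held the most ICL and MLS of the untreated WT libraries and stood farther from the other replicates across genes. Without it 4 of the 10 genes were called: ICL at 0.91 (adjusted p 0.000399) and MLS at 0.60 (0.00538) were higher, and LACS6 at −0.54 (0.0191) and SDP1 at −0.41 (0.0492) were lower, while the SS genes went from 818 to 2703. They were 409 without WT dark replicate 3, 442 without WT dark linc replicate 2 and 389 without WT dark linc replicate 3, each with 0 of the 10 called.

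In pifq seedlings lincomycin lowered SDP1 only among the 10, from 25.0 ± 2.28 to 15.9 ± 1.18 (SD, n = 3) normalized CPM, a log2 fold change of −0.66 (SE 0.13) with an adjusted p of 0.00284 by edgeR's quasi-likelihood test over 13142 genes. Of all genes, 13.5% were SS and lower and 23.2% SS in either direction. ICL and MLS were at −0.10 (95% interval −0.69 to 0.48) and 0.07 (−0.25 to 0.40). KAT2 was at 0.22 (adjusted p 0.179) and ACX2 at −0.24 (0.185), both without overlap between the groups, as was SDP1, which made 3 of the 10 against 39.9% of genes.

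The replicate numbers paired the libraries in this comparison, and with them as a block ACX2 was also SS and lower (−0.24, adjusted p 0.0259), so that 2 genes were called, while SS genes went from 3050 to 5496. With library totals the median of all genes was 0.32, and SDP1 was at −0.34 with an adjusted p of 0.0713 by edgeR's quasi-likelihood test. MLS, PCK1, KAT2, ACX3 and MFP2, 5 genes, were called higher on that scale, at values between 0.39 and 0.55. There 6116 of 13142 genes were SS, of which 85.8% were higher in place of 41.7%. Calls as higher were thus common among all genes, and these 5 calls do not stand out from that background.

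Whether the genotypes differed in their response to lincomycin was tested by the interaction over all 12 libraries and 14040 genes, of which 4.98% were SS. Of the 10 genes 0 were called, and 0 had an unadjusted p under 0.05; DESeq2 also called 0. The interaction was −0.65 (SE 0.41, 95% interval −1.52 to 0.22, adjusted p 0.531) for ICL, −0.34 (SE 0.24, −0.85 to 0.18, 0.607) for MLS and −0.36 (SE 0.21, −0.80 to 0.09, 0.489) for SDP1, where a negative value means a lower response in pifq. A difference of up to 1.52 for ICL therefore lay within its interval, and a difference between genotypes was not detectable for these genes at this replication.

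**Figure D3:**
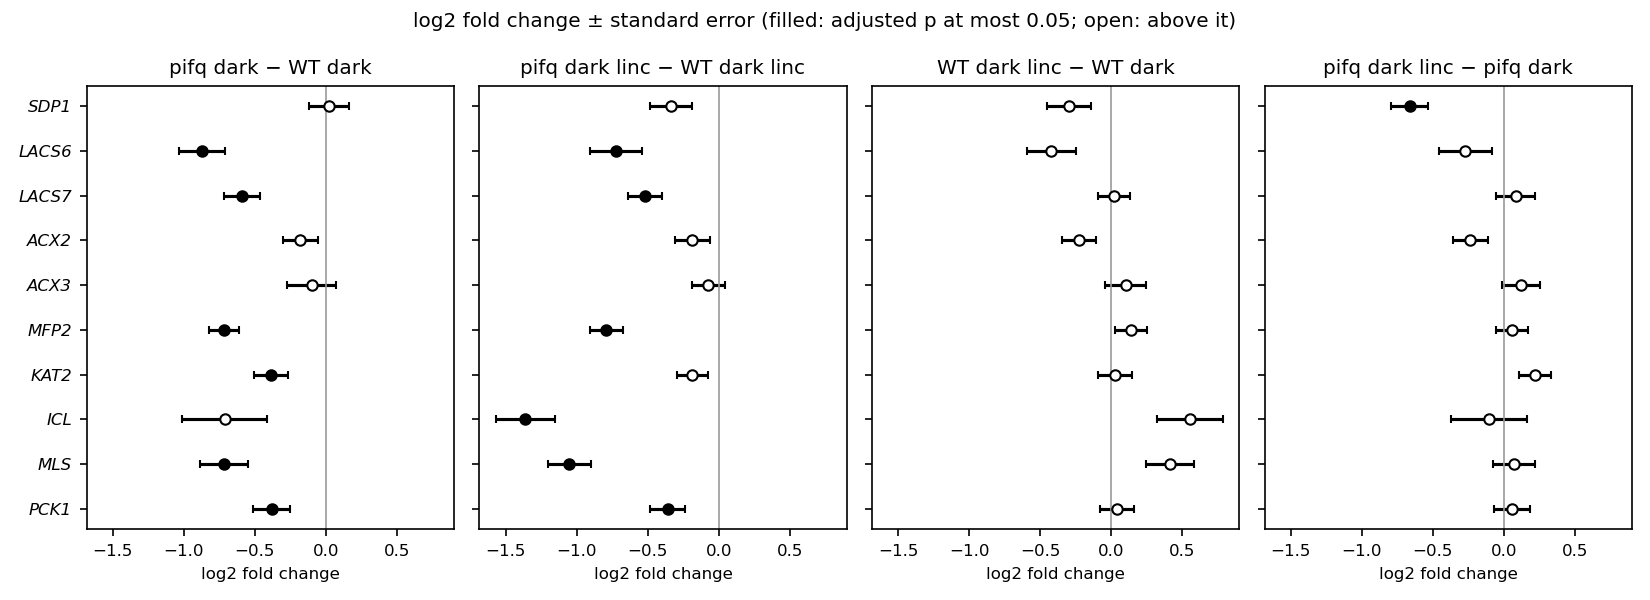
Log2 fold change (horizontal axis) with its standard error for each gene in 4 comparisons; filled points passed an adjusted p of 0.05 and open points did not. The comparisons of pifq with WT hold 6 filled points each, all to the left of 0, lincomycin in WT holds none, and lincomycin in pifq holds SDP1 alone.

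The neighbours of these genes in the pathway were read from lists chosen by function. Of the other oil body, transport and glycerol genes, 5 of 7 passed the filter on low counts, and 3 were SS and lower in pifq dark: PXA1, the transporter that brings fatty acids into the peroxisome (−0.48), PNC2, a peroxisomal adenine nucleotide carrier (−0.48), and SDP6, the mitochondrial glycerol-3-phosphate dehydrogenase (−0.39). PXA1 and PNC2 were SS and lower under lincomycin too (−0.55 and −0.40). Of the other beta-oxidation genes, 9 of 12 were tested, and 3 fell in pifq dark: ACX1, an acyl-CoA oxidase of long chains (−0.70, adjusted p 0.00110), ECH2, an enoyl-CoA hydratase (−0.52), and SDRB, a dienoyl-CoA reductase (−0.35). ACX1 went from 304 to 188 normalized CPM, and it fell under lincomycin as well (−0.73), where 2 of the 9 were lower. In either comparison 0 genes of these lists were SS and higher, while 4 of the 9 tested beta-oxidation genes had positive values in each. The 3 and 2 of 9 stand against 20% and 18.5% of all tested genes that were SS and lower, so that these shares are not far from the background. The 3 and 2 of 5 in the oil body, transport and glycerol list stand against the same 20% and 18.5%.

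Genes of the glyoxylate cycle and gluconeogenesis beyond ICL, MLS and PCK1 moved both ways. Of 13 genes 10 were tested, and in pifq dark PMDH1, a peroxisomal malate dehydrogenase (−0.54), and ACO3, an aconitase (−0.42), fell, whereas PMDH2, the other peroxisomal malate dehydrogenase (1.18), and CYFBP, the cytosolic fructose-1,6-bisphosphatase (1.03), rose. These 2 lower and 2 higher of 10 stand against 20% and 21% of all tested genes, so that they are near the background. Under lincomycin 3 of the 10 fell with PIF loss, ACO3 (−0.51) and PMDH1 (−0.36) among them, and 0 rose. Of all genes, 18.5% were SS and lower there. The malate dehydrogenases also parted with the drug in pifq: PMDH2 fell by 1.98 and PMDH1 rose by 0.62 on the log2 scale, and CYFBP (−1.50) and PPDK, a pyruvate orthophosphate dikinase (−1.55), fell. In WT, PMDH2 (−0.94) and PPDK (−1.14) fell. The 3 lower of 10 in pifq stand against 13.5% of all genes, and the 2 of 10 in WT against 6.08% in either direction. KAT1, a thiolase related to KAT2, was the only called gene of the beta-oxidation list after lincomycin, and it rose in both genotypes (0.55 in WT and 0.67 in pifq), as did SDP6 and PNC1 of the transport list in pifq (0.47 and 0.46). KAT1 is 1 of 9 tested genes, and SDP6 and PNC1 are 2 of 5. Of all tested genes, 6.08% in WT and 23.2% in pifq were SS in either direction.

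Peroxisome import and biogenesis genes, 11 of 12 tested, had 0 calls in pifq dark by edgeR's quasi-likelihood test, and 0 with an unadjusted p under 0.05. Under lincomycin 2 of the 11 were lower in pifq, PEX13 (−0.52) and PEX14 (−0.39), which belong to the docking complex of the membrane. Lincomycin in WT raised 1 of the 11, PEX7, the receptor of the second type of targeting signal (0.50). Of all genes, 18.5% were SS and lower in the first comparison and 6.08% SS in either direction in the other, so that these counts are not far from the background. Photorespiratory genes of leaf peroxisomes were mostly higher in pifq dark. Of 8, 6 were SS and higher in pifq dark, led by GGT1 (2.51), HPR1 (1.89), SGAT (1.89) and GOX1 (1.69), and 1 was lower, the catalase CAT3 (−0.92). Lincomycin in pifq lowered 6 of the 8, GGT1 (−2.89), HPR1 (−2.66), GOX1 (−2.20) and SGAT (−2.05) most, and in WT it lowered 4 of the 8, HPR1 (−1.43), GGT1 (−1.23), GOX1 (−0.77) and SGAT (−0.62). Under lincomycin 3 of the 8 were still higher in pifq than in WT, GGT1 by 0.86 and HPR1 by 0.68 among them, and 2 were lower, CAT2 (−0.88) and CAT3 (−0.81). Of all tested genes, 21% were SS and higher and 20% SS and lower in pifq dark against WT dark. Under lincomycin these shares were 17.4% and 18.5%. With the drug, 13.5% of genes were SS and lower in pifq, and 6.08% were SS in either direction in WT.

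Some transcripts of seed storage and oil body proteins were also lower in pifq. Of 14 seed storage and oil body genes 5 were tested, and 4 were SS and lower in pifq dark: OLE3, an oleosin (−4.76), CRA1 and CRC, which encode cruciferins (−2.06 and −1.81), and EM6, a late embryogenesis protein (−0.79). The same 4 were lower under lincomycin (−4.25, −2.83, −2.67 and −1.31). These 4 of 5 stand against 20% of all tested genes that were SS and lower in pifq dark and 18.5% under lincomycin. The summed level of the 14 genes was between 190.9 and 274.4 normalized CPM in untreated and between 164.5 and 299.8 in treated WT, and between 36.2 and 54.9 in untreated and between 28.9 and 53.2 in treated pifq, and none of the 14 was at 0 in all libraries. Most of the sum in WT dark, 230 on average, came from OLE3 (115) and CRA1 (67.2), which averaged 4.27 and 16.2 in pifq dark, where the sum was 46.1. Among genes of the list that were too low to be tested, OLE4 (1.29 and 1.26) and CLO1 (0.529 and 0.543) hardly differed between these groups. OLE1 (3.26 and 2.04) and EM1 (2.53 and 0.961), also untested, were lower in all pifq dark than in all WT dark libraries. The part of the 14 genes in the differences of the 10 genes was not tested.

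**Figure D4:**
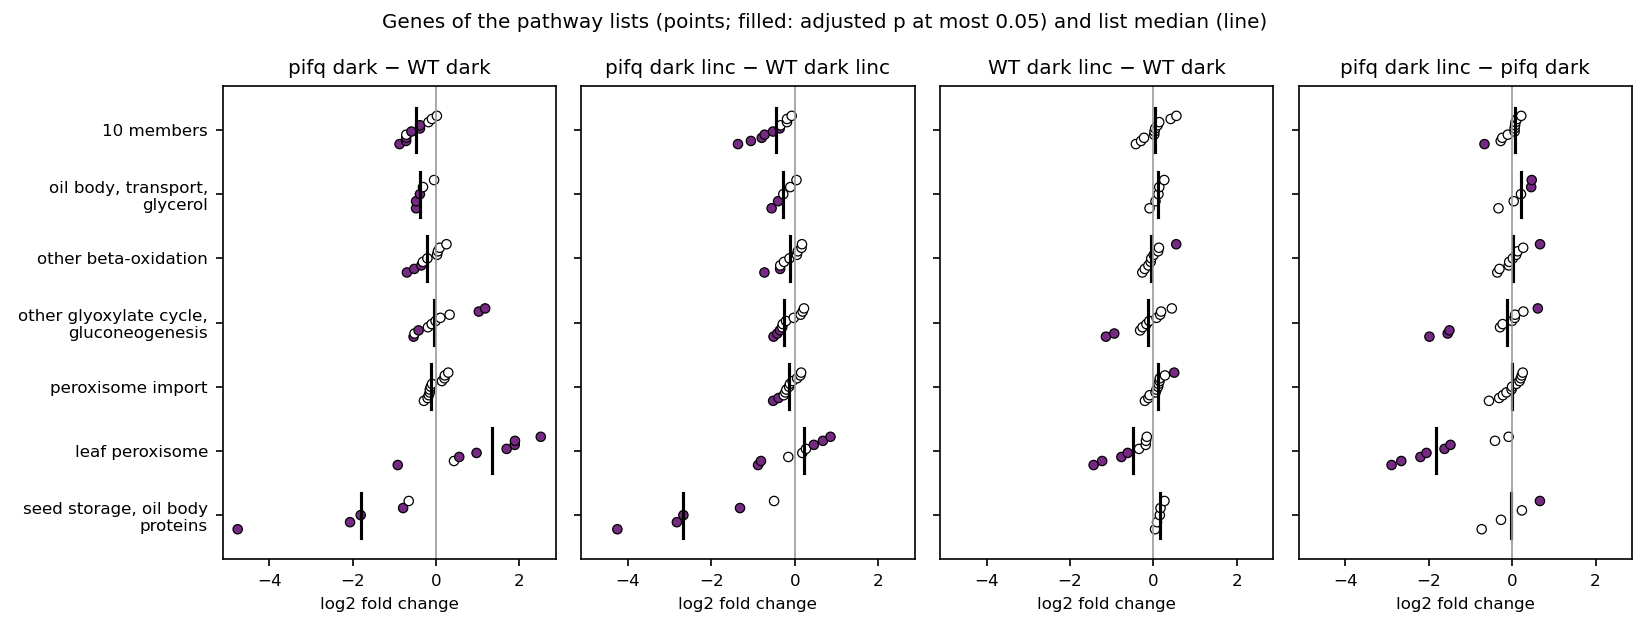
Log2 fold change (horizontal axis) of each tested gene of the lists (rows) in 4 comparisons; filled points passed an adjusted p of 0.05, and the vertical line is the median of the list. The median of the 10 genes is left of 0 with PIF loss (−0.49 and −0.44), with SDP1 at 0.02 in the dark, 7 of 8 leaf peroxisome genes lie right of 0 in pifq dark with CAT3 at −0.92, and OLE3 is the point at −4.76.

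Across the 12 libraries the 10 genes tended to go together, since 40 of 45 pairs had a positive Pearson r of log2(CPM + 1), with a median of 0.49. The highest were PCK1 with LACS7 (0.95), PCK1 with MFP2 (0.93) and ICL with MLS (0.92), and the lowest was ACX3 with SDP1 (−0.55). These points share the 4 groups, and on deviations from the group means the median was −0.05, with 0.77 for ICL with MLS, 0.70 for PCK1 with LACS7 and 0.33 for PCK1 with MFP2. The 5 genes most like ICL over the 12 libraries by the same measure were PIP5K1 (0.96), AT3G60200 (0.95), AT1G26270 (0.95), AT4G19200 (0.95) and AT5G10830 (0.94). Because they were picked for this likeness, their group means repeat those of ICL, higher in WT dark linc than in WT dark and lower in both pifq groups.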

How the data were processed

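RNA from whole seedlings was made into directional libraries of polyA-tailed 3′-end fragments. The authors aligned the reads with Bowtie 0.12.7, allowing 1 mismatch, to the TAIR10 representative transcriptome and used only the last 500 bases of each transcript, on its own strand. What the authors deposited is raw counts per AGI locus, not normalized, with 1 column per library; the labels mention technical duplicate runs, and how these were joined is not given in the sources used here. Every column was matched to its group by its label, and 0 other per-sample columns were present.

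Differences were tested in edgeR 4.0.16 under R 4.3.3 (TMM, quasi-likelihood test, Benjamini-Hochberg adjustment over all tested genes). The fit used the 6 libraries of the groups compared, or all 12 for the interaction, for genes that reached 5 CPM in 2 or more of them; all 10 members passed. The filter and thresholds follow the study's methods, which name edgeR but do not state the scaling between libraries. Levels are CPM scaled by TMM over 12 libraries, intervals are at 95%, and p-values set the difference between groups against the spread between biological replicates. The test was tried on simulated counts first. Alternatives were RLE size factors, library totals, DESeq2 1.42.0, all 12 libraries in the fit, a replicate block, no filter on low counts, genes over 1% of the counts left out, and leaving out each library. Deviations from group means correlated between same-numbered libraries in every pair only for pifq dark linc with pifq dark (0.369 to 0.539), from the data rather than the labels.

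The members and lists were chosen with earlier results of these data known. All 10 members are named, up to 4 called genes of each list by size of change, and the 5 genes most like ICL; 1 called list gene is not reported here. Gene positions and promoters came from RefSeq TAIR10.1.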

Additional observations from a re-analysis of the deposited data

Results flagged for a closer look

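None of the 10 oil mobilization genes was singled out, but genes of the neighbouring lists responded to lincomycin differently in the 2 genotypes, by the interaction in edgeR's quasi-likelihood test over all 12 libraries: 6 of 8 leaf peroxisome genes and 2 of 10 tested genes of the glyoxylate cycle and gluconeogenesis, of which 6 are named here, at most 4 from a list by size. The response in pifq minus that in WT, as a log2 value, was −1.65 for GGT1 (adjusted p 5.39e-05), −1.43 for CAT2 (0.000126), −1.43 for SGAT (0.000696) and −1.42 for GOX1 (0.000477), which belong to leaf peroxisomes, and −1.23 for CYFBP (0.000132) and −1.04 for PMDH2 (0.0155) among the glyoxylate cycle and gluconeogenesis genes. The change with lincomycin was thus more negative in pifq for these 6. Of all tested genes, 4.98% were SS by the interaction in either direction.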

How the results depend on the processing

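Of 700 member values recomputed under the alternatives, 626 kept their direction and side of the threshold, 23 gained a call, 14 lost one and 37 changed sign, and 240 of 262 counts stayed within 1.5 times. Library totals gave 4 SSTF members in pifq dark against WT dark, and the share of all genes on that scale was not counted. For lincomycin in pifq they gave 5 members higher, 0 lower and 6116 of 13142 genes SS (3050 with TMM), of which 85.8% were higher. For the interaction they gave 1 member higher (KAT2, 0.54, adjusted p 0.0259 by edgeR's quasi-likelihood test). There 1814 of 14040 genes were SS (699 with TMM), of which 85.1% were higher in place of 24.6%. With the replicate block, lincomycin in WT had 2 members higher (ICL, 0.61, and MLS, 0.43), 1 lower (LACS6, −0.42) and 2032 SS genes (818 without it), and lincomycin in pifq 2 lower and 5496; in pifq dark against WT dark ICL was called (adjusted p 0.00360), and under lincomycin PCK1 was not (0.0824), with no other member's call changed by the block. The mean correlation of same-numbered libraries was 0.241, −0.0833, 0.262 and 0.443 for PIF loss in the dark and under lincomycin and for lincomycin in WT and in pifq. Without the filter lincomycin in WT had 2 members higher and 1699 SS genes.

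Leaving out 1 library gave 4 to 6 members lower in pifq dark, 5 to 7 lower and 1 to 2 SSTF under lincomycin, 0 to 2 higher and 0 to 2 lower for lincomycin in WT with 389 to 2703 SS genes, and 1867 to 2991 SS genes for lincomycin in pifq. The values that changed sign were not called in the fits reported, where they were between −0.27 and 0.16, and their cause was not tested; ACX2 for lincomycin in pifq, one of them, was called with the replicate block. With library totals SDP1 was −0.36 for PIF loss in the dark, ICL 0.22, ACX2 0.0888 and LACS6 0.0614 for lincomycin in pifq, and ACX2 0.33 and MFP2 0.27 for the interaction. The interaction of ACX2 was 0.0232 with RLE size factors and 0.00877 with DESeq2. Over the fits without 1 library, PIF loss in the dark ranged from −0.22 to 0.0866 for ACX3 and −0.0858 to 0.0881 for SDP1. Lincomycin in WT ranged from −0.0175 to 0.084 for KAT2 and −0.0185 to 0.0401 for LACS7. Lincomycin in pifq ranged from −0.36 to 0.12 for ICL, −0.12 to 0.20 for MLS and −0.0223 to 0.21 for LACS7. The interaction ranged from −0.0273 to 0.11 for PCK1, −0.089 to 0.0595 for ACX2, −0.15 to 0.15 for ACX3, −0.0395 to 0.28 for LACS6 and −0.0326 to 0.20 for LACS7.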

Other observations

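Some genes related to the 10 were read at low levels in these seedlings, chosen here after their values were seen. SDP1L, a lipase related to SDP1, averaged 1.67 normalized CPM in untreated and 1.36 in treated WT, and 0.498 in untreated and 0.554 in treated pifq. PCK2, the second phosphoenolpyruvate carboxykinase gene, averaged between 1.97 and 2.48 in the 4 groups, and KAT5, a further thiolase gene, between 1.13 and 1.99. These genes did not pass the filter on low counts and were not tested.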
